A study of Arabidopsis thaliana with 8 samples.

Results

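In an Arabidopsis suspension culture, the trimethylated forms of histone H3 at lysine 4 (H3K4me3) and at lysine 27 (H3K27me3) were compared gene by gene within the same cells. The genes were all intervals that the deposited files mark as protein-coding, 27213 of 27394 gene intervals. Each gene was described by its reads in the culture H3K4me3 library and in the culture H3K27me3 library. A gene was placed in a class (H3K4me3 only, H3K27me3 only, both or neither) where the culture H3 library had at least 10 reads in it, which 24227 genes had (89.0%). The 2986 genes without a class were short, with a median length of 496.5 bp.

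H3K4me3 is laid down by trithorax-group methyltransferases around the start of transcribed genes. H3K27me3 is laid down by Polycomb repressive complex 2 and in plants covers whole bodies of silent genes, above all developmental regulators that another organ or stage uses. Both marks at 1 gene have been described as bivalent chromatin, but reads from a bulk culture cannot tell nucleosomes that carry both marks from a mixture of cells or alleles that carry either.

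Chromatin of wild-type Col-0 was immunoprecipitated with 4 antibodies (anti-H3, anti-H3K4me3, anti-H3K27me3 and anti-H3K9me2) from the suspension culture and from leaf, giving 8 libraries, 1 for each antibody and sample type. The culture was a Col-0 cell line kept in liquid B5 medium with 1.1 mg/l of the synthetic auxin 2,4-D, under light, and diluted into fresh medium every 7 days. Its cells were fixed in 1% paraformaldehyde for 15 min. The leaves came from wild-type Col-0 plants on MS agar. No group carried a mutation or a transgene. The culture was a single cell line, and no antibody had a second library, so no difference below has a replicate check and none was tested.

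The culture libraries held 3476684 nuclear reads for H3K4me3, 5649143 for H3K27me3 and 3116646 for H3. Protein-coding genes took 65.6% of the nuclear reads of the H3K4me3 library, 43.8% of the H3K27me3 library and 46.7% of the H3 library. The median gene held 51 H3K4me3 reads, 30 H3K27me3 reads and 35 H3 reads. The 4 leaf libraries were shallower, between 1449274 and 2160614 nuclear reads. All counts cover the whole gene body without regard to strand, and 12.5% of the genes overlap another gene and share reads with it.

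The 2 marks lay on largely separate genes. Of the 24227 genes with a class, 6624 (27.3%) held H3K4me3 only, 3001 (12.4%) held H3K27me3 only, 91 (0.376%) held both and 14511 (59.9%) held neither. A mark was counted as present where its reads per 1000000 nuclear reads were at least 2-fold those of H3 after a pseudocount of 1 read. Among genes with H3K4me3, 1.36% also held H3K27me3, against 12.8% of all classified genes. Among genes with H3K27me3, 2.94% also held H3K4me3, against 27.7% of all. The H3 library divides both marks, so it was also left out. With a mark instead counted where its reads per kilobase per 1000000 nuclear reads were at least 2-fold those of the median gene of its library, 15.7% of the H3K27me3 genes held H3K4me3 against 22.9% of all, and 66 of the 91 genes kept both marks. By that rule the order of the single classes turned, with 4594 genes holding H3K4me3 only and 5116 H3K27me3 only. The overlap was below the background by both rules, by a wide margin over H3 and by a smaller one without it.

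**Figure D1:**
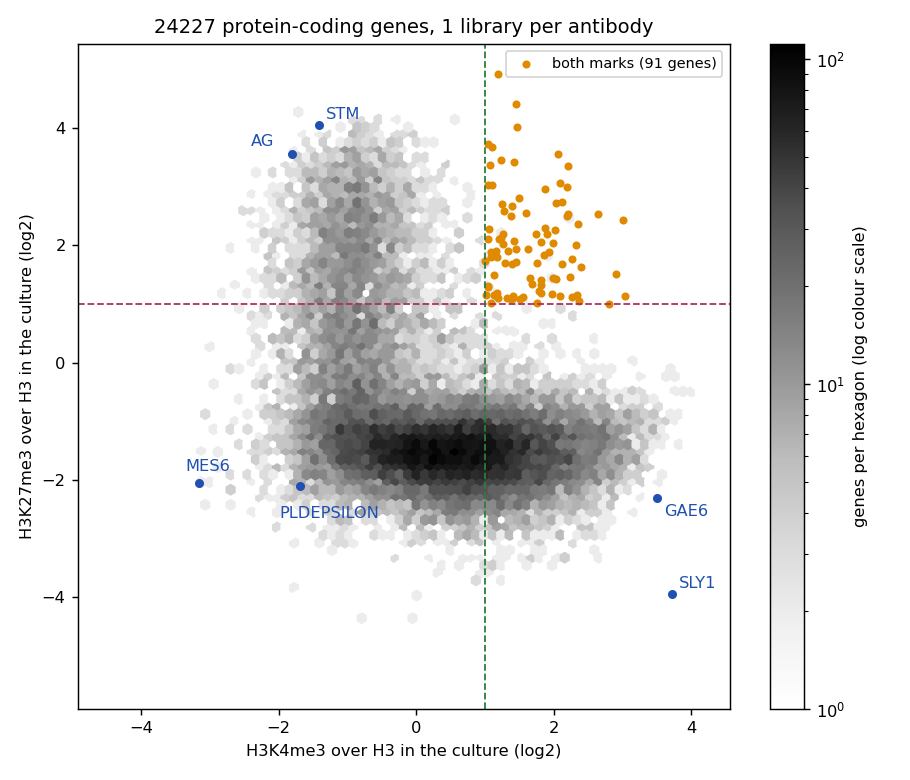
H3K27me3 over H3 (y axis, log2) against H3K4me3 over H3 (x axis, log2) for 24227 protein-coding genes in the culture, shaded by the number of genes per hexagon on a log colour scale, with the 2-fold thresholds as dashed lines. The genes form 2 arms, and the 91 genes with both marks (orange) are thinly scattered in the upper right; 6 genes named in the text are in blue.

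The 2 thresholds cut the genes at different places. H3K4me3 over H3 was spread continuously around a median of 0.23 (log2), with 658 genes within 0.1 above the threshold and 701 within 0.1 below it. H3K27me3 over H3 had a median of -1.34, and its threshold fell in a sparse stretch, with 127 genes just above and 131 just below. With a 3-fold line 2306 genes held H3K27me3 only and 3547 held H3K4me3 only, so the stricter line took more from the H3K4me3 class. With the genes ordered by H3K4me3 over H3 and cut into 10 bins of equal size, the share with H3K27me3 went from 33.7% in the lowest bin to 16.9% in the fourth and 1.24% in the highest. Ordered instead by H3K4me3 reads per kilobase per 1000000 nuclear reads, the share went from 35.2% to 2.39%, with H3K27me3 still called over H3. The median H3K27me3 level per kilobase in these bins, which does not use H3, went from 4.48 in the lowest to 2.12 in bin 7. It was 2.89 in the highest. As a description over 24227 genes, the rank correlation (Spearman) of the marks was -0.37 over H3, where both share the H3 library, and -0.12 per kilobase, where both share gene length and mappability; genes are not replicates.

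The direct ratio of the marks needs neither H3 nor gene length. It is the log2 of H3K4me3 over H3K27me3, each per 1000000 nuclear reads with a pseudocount of 1 read, and it was taken for the 25012 genes with at least 20 reads over both libraries. Its 95% interval is the exact Clopper-Pearson interval of the share of H3K4me3 reads and covers counting error only, not variation between cultures. The median gene had a ratio of 1.67, so 15633 genes (62.5%) had H3K4me3 at least 2-fold higher with an interval clear of 0, 4686 (18.7%) had H3K27me3 higher by the same rule, and 4693 (18.8%) neither. Centred on the median gene, 6530 genes had H3K4me3 higher and 8143 had H3K27me3 higher, because the 2 antibodies have no common scale. The zero of the ratio is therefore arbitrary, and each gene and list is read against 1.67. In leaf the median ratio was 0.87, and 11207 genes (46.7%) had H3K4me3 higher while 5999 (25%) had H3K27me3 higher.

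**Figure D2:**
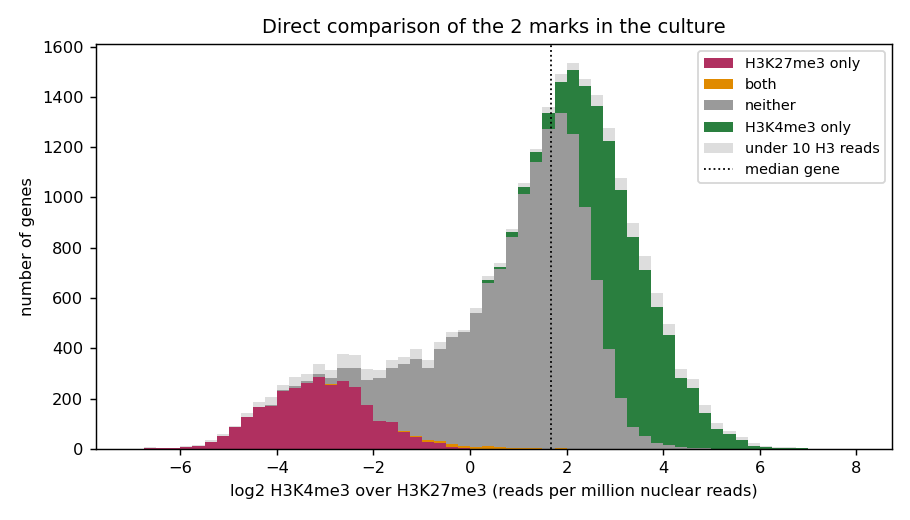
Number of genes (y axis) by log2 ratio of H3K4me3 to H3K27me3 reads per 1000000 nuclear reads in the culture (x axis), stacked by class, with the median gene at 1.67 as a dotted line. Genes with H3K27me3 only form a shoulder around a median of -3.15, and genes with H3K4me3 only, around a median of 3.23, merge into the main hump of genes with neither mark.

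On the log scale the ratio is H3K4me3 over H3 minus H3K27me3 over H3. A gene with a single mark must therefore have a ratio on that mark's side of equality. The counts below are no separate check of that side. For singly marked genes they show only how many also passed the fold and interval rule of the direct ratio. Of the 3001 genes with H3K27me3 only, 2943 had H3K27me3 higher directly and 58 fell between. Of the 6624 genes with H3K4me3 only, 6585 had H3K4me3 higher directly. Of the 91 genes with both marks, 65 fell between, 20 had H3K27me3 higher and 6 had H3K4me3 higher. The genes with neither mark were the divided class, with 8389 higher in H3K4me3, 1202 higher in H3K27me3 and 4349 between.

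The gene with the highest ratio was SLY1 (AT4G24210, chromosome 4, 12563553 to 12564482), the F-box protein that marks DELLA repressors for destruction in gibberellin signalling. It had 248 H3K4me3 reads, 1 H3K27me3 read and 16 H3 reads. Its ratio was 7.66 (interval 6.16 to 13.96), the highest of the 25012 genes with a ratio. The abscisic acid receptor PYL1 (AT5G46790) had 189 H3K4me3 reads and 1 H3K27me3 read, a ratio of 7.27 (5.77 to 13.57). With a single H3K27me3 read in each, the upper ends are loose and the lower ends carry the comparison.

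GAE6 (AT3G23820), an epimerase that makes the sugar nucleotide for pectin, had 760 H3K4me3 reads, 21 H3K27me3 reads and 59 H3 reads, a ratio of 5.81 (5.26 to 6.58). FLA2 (AT4G12730), a fasciclin-like arabinogalactan protein of the cell surface, had 261 against 5 reads, a ratio of 6.15 (5.17 to 8.04). RAP2.4 (AT1G78080), also known as WIND1, an AP2/ERF factor that promotes dedifferentiation at wounds, had 348 against 9 reads, a ratio of 5.83 (5.03 to 7.11). These genes were picked for a high ratio, so H3K4me3 outnumbers H3K27me3 in them by rule. The H3K27me3 library was the deeper one.

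The phosphate sensor SPX1 (281 against 5 reads), the GATA factor GATA16 (159 against 2), DABB1 (142 against 1), the plastid ribosomal protein PSRP6 (120 against 1) and the H2B histone gene HTB9 (153 against 2) completed the 10 highest by the interval end nearer 0, with ratios of 6.25, 6.44, 6.86, 6.62 and 6.38. HTB9 overlaps another gene, and SPX1 and PSRP6 had 7 and 9 H3 reads, too few for a class. All 10 also had H3K4me3 above H3K27me3 in leaf, with leaf ratios from 1.95 (GATA16) to 4.83 (GAE6).

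The 10 genes with the lowest ratios by the interval end nearer 0 included 7 transcription factors. STM (AT1G62360, chromosome 1, 23058582 to 23061722), the homeobox gene that keeps the shoot meristem undifferentiated, had 45 H3K4me3 reads, 3292 H3K27me3 reads and 109 H3 reads. Its ratio was -5.46 (-5.95 to -5.07), and H3K27me3 stood at 4.05 over H3 (log2). AFO (AT2G45190, chromosome 2, 18628265 to 18630712), better known as FIL or YAB1, a YABBY factor of the lower side of leaves and floral organs, had 6 against 720 reads, a ratio of -5.99 (-7.66 to -5.08). APL (AT1G79430), the MYB factor of phloem identity, had 7 against 799 reads, a ratio of -5.94 (-7.45 to -5.08). In all 3, H3K27me3 reads outnumbered H3K4me3 reads by a wide margin, which is the rule that picked them.

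SUP (AT3G23130), the zinc finger factor that bounds the stamen whorl, had 7 against 746 reads, a ratio of -5.84 (-7.35 to -4.99). AG (AT4G18960), the MADS factor of stamen and carpel identity, had 15 against 1061 reads, a ratio of -5.35 (-6.29 to -4.72). NAC070 (AT4G10350), a NAC factor of the root cap, had 10 against 816 reads, a ratio of -5.51 (-6.72 to -4.76). WRKY59 (AT2G21900) had 1 against 283 reads, a ratio of -6.45 (-12.75 to -4.95).

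BGLU32 (AT5G24550), a beta-glucosidase gene, had 49 against 3208 reads, a ratio of -5.30 (-5.77 to -4.93), with 152 H3 reads in the culture and 17 in leaf. SK16 (2 against 445 reads) and SK14 (1 against 340 reads), neighbouring SKP1-like genes of similar sequence between which the counting could split reads, had -6.52 and -6.71. H3K27me3 was the higher mark in leaf as well for all 10, with leaf ratios from -2.29 (BGLU32) to -7.18 (WRKY59, with 0 H3K4me3 reads in leaf).

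The 91 genes with both marks had 10 to 294 H3 reads, with a median of 21, and 58 of them had fewer than 30 H3 reads. Both lower interval ends over H3 were above 0 in all 91, which the 2-fold rule with at least 10 H3 reads nearly assures. They were at or above the 2-fold line in 25. Their levels were as high as in the singly marked classes for H3K4me3, with a median of 19.4 reads per kilobase per 1000000 nuclear reads against 18.6 in genes with H3K4me3 only. For H3K27me3 the median level was 22.8 against 32.1 in genes with H3K27me3 only. The median H3 level of the 91 was 4.95 against 6.01 over all classified genes on the same scale. The rule that picked the 91 used these counts, so the levels are no separate support for both marks.

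LSH7 (AT1G78815, chromosome 1, 29631743 to 29632745), an ALOG-domain gene of a family that acts at organ boundaries, had 139 H3K4me3 reads, 209 H3K27me3 reads and 19 H3 reads. H3K4me3 was 2.65 and H3K27me3 2.53 above H3 (log2), so the ratio of the marks was 0.12 (-0.21 to 0.43). LAS (AT1G55580), the GRAS factor needed to start axillary meristems, had 152 and 430 reads, or 2.19 and 2.99 over H3. NGA2 (AT3G61970), a B3 factor of style and leaf margin, had 163 and 275 reads, or 1.99 and 2.04 over H3. In these 3 boundary and organ-shape genes neither mark was near the threshold, which the rule that picked them favours.

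The laccase gene LAC1 (199 and 314 reads, 46 H3 reads) and the AT-hook gene AHL22 (144 and 189 reads, 25 H3 reads) had ratios of 0.04 and 0.31, with intervals that held 0. HSFB4 (76 and 146 reads, 16 H3 reads), also called SCHIZORIZA, a heat shock factor of root stem cell fate, had -0.23, again with 0 inside the interval. ZIP2 (93 and 323 reads), a metal transporter gene, had -1.08. PHT1;3 (AT5G43360), a phosphate transporter, had 758 and 2296 reads with 294 H3 reads, against 18 H3 reads in leaf. It is the named gene with both marks where H3 itself differed most between the samples, 7.22-fold per 1000000 nuclear reads, and it has close copies beside it. At a 3-fold line, centred and with protein-coding totals it held H3K27me3 only.

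HB34 and SUB1 stood apart in leaf. HB34 (AT3G28920), a zinc finger homeodomain gene, had 100 H3K4me3 and 317 H3K27me3 reads in the culture but 262 and 14 in leaf, ratios of -0.95 and 4.19. SUB1 (AT4G08810), a calcium-binding protein of light signalling, had 203 and 194 reads in the culture and 154 and 17 in leaf, ratios of 0.77 and 3.16. In leaf both held H3K4me3 only. All 10 named genes also held both marks by the rule without H3. Of the other 8 named genes, LAS and NGA2 held both marks in leaf and the remaining 6 held H3K27me3 only.

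**Figure D3:**
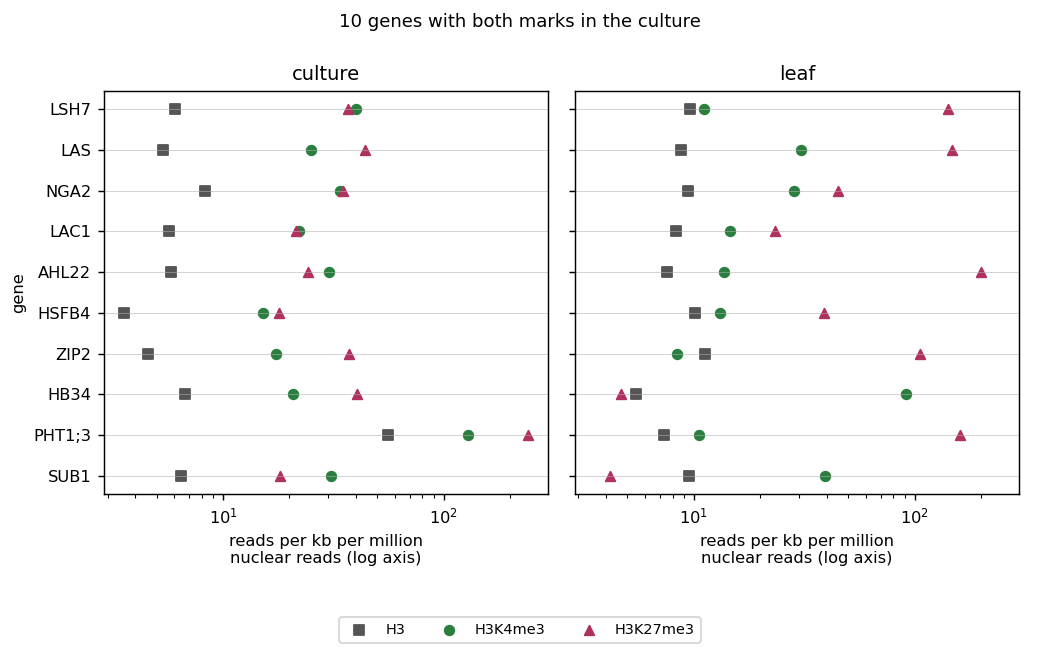
Level of H3, H3K4me3 and H3K27me3 in reads per kilobase per 1000000 nuclear reads (x axis, log scale) for the 10 named genes with both marks (y axis), in the culture (left) and in leaf (right), 1 library per point. In the culture both marks lie to the right of H3 in every gene; in leaf H3K27me3 lies farthest right in 8 genes, and in HB34 and SUB1 it lies left of H3.

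Of all 91 genes, 77 had a class in leaf, and 49 of these (63.6%) held H3K27me3 only there. A further 12 held both marks in leaf, 7 H3K4me3 only and 9 neither. H3K9me2 was at least 2-fold over H3 in 5.49% of the 91, 5 genes, against 1.62% of all classified genes. In leaf, 4468 of 21500 genes (20.8%) held H3K4me3 only, 3609 (16.8%) H3K27me3 only, 298 (1.39%) both and 13125 (61%) neither; the leaf H3 library was shallower, with a median of 19 reads per gene against 35, and the part of depth in this difference was not tested.

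Genes with neither mark were held by H3 but poor in both antibodies. MES6 (AT2G23550), a methylesterase gene, had 5 H3K4me3, 20 H3K27me3 and 47 H3 reads, or -3.16 and -2.05 over H3 (log2). PLDEPSILON (AT1G55180), a phospholipase D, had 30, 37 and 89 reads, or -1.70 and -2.10. The kinase gene CPK25 (10, 16 and 44 reads), the glucosyltransferase genes UGT76E2 (7, 8 and 33) and UGT74E2 (11, 30 and 58), the NAC gene NAC077 (7, 12 and 31), RIC1 (4, 6 and 23), which encodes an effector of ROP GTPases, and CYP705A27 (9, 23 and 50), which overlaps another gene, completed the 8 clearest cases. All 8 also held neither mark in leaf. They are the extreme of the class: its median gene had -0.10 for H3K4me3 and -1.41 for H3K27me3 over H3.

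Gene length moved with the classes. Genes with neither mark had a median length of 2367 bp, against 1878.5 bp with H3K4me3 only, 1531 bp with H3K27me3 only and 1387 bp with both. The share with H3K4me3 only was 20.4% in genes up to 1 kb, 37.4% between 1.5 and 2 kb and 2.62% above 6 kb. The share with H3K27me3 only was 25.4% in genes up to 1 kb and 1.70% above 6 kb. The direct ratio, which does not divide by H3, behaved otherwise at the long end. By it H3K4me3 was higher in 36.4% of genes up to 1 kb, 73.2% between 3 and 4 kb and 60.5% above 6 kb. Counts over a whole body spread a mark at the gene's start over its length, so "neither" in a long gene does not say that its start lacks H3K4me3. Levels are compared below only per gene or per kilobase.

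**Figure D4:**
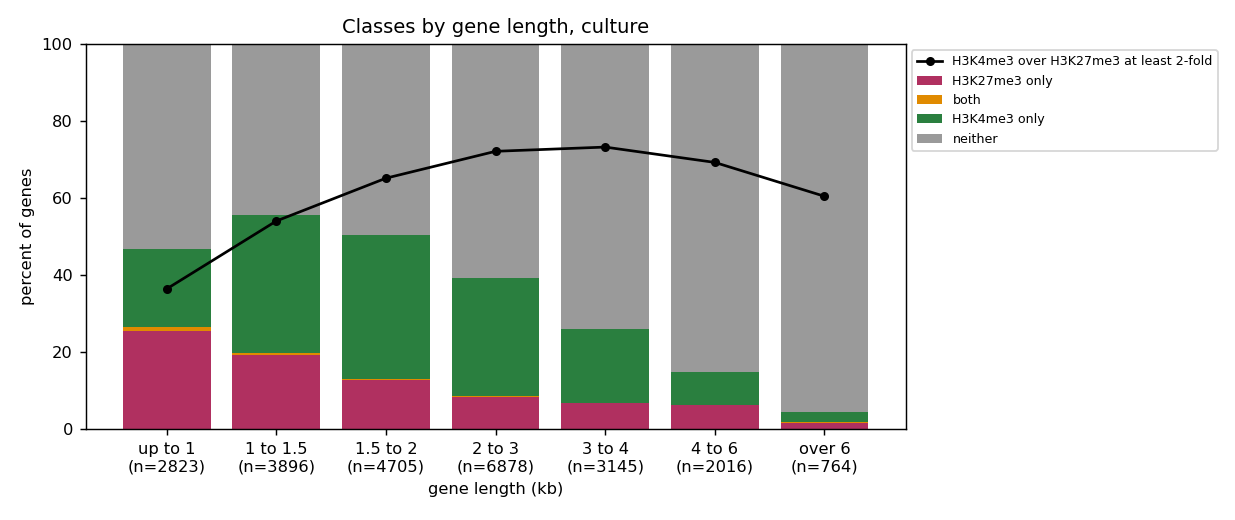
Percent of classified protein-coding genes (y axis) in each class by gene length in kb (x axis, with the number of genes), as stacked bars, and percent with H3K4me3 at least 2-fold over H3K27me3 directly as black points. The share with neither mark goes from 53.1% in the shortest to 95.5% in the longest genes, while the black points lie between 60.5% and 73.2% from 1.5 kb on.

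Genes with H3K27me3 only lay farther from other genes. Their median distance to the nearest gene was 992 bp, against 277 bp for genes with H3K4me3 only and 1069 bp for genes with both marks. Among them 2.60% overlapped another gene, against 15.7% of genes with H3K4me3 only and 13.1% of all classified genes. Within windows around the centromeres, 19.0% of genes held H3K27me3 only and 18.4% H3K4me3 only. On the chromosome arms the shares were 11.7% and 28.3%. H3K9me2, the mark of heterochromatin, was 2-fold over H3 in 1.87% of genes with H3K27me3 only, near the 1.62% of all classified genes. The share was 2.18% in genes with neither mark and 0.211% in genes with H3K4me3 only.

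H3K27me3 genes neighboured each other. Of the genes next to a gene with H3K27me3 only, 32.9% also held H3K27me3 only, against 12.1% of all neighbours. Leaving out overlapping genes gave 34.5% against 13.8%. For H3K4me3 only, the share was 32.2% against 27.4%. Intergenic stretches of at least 200 bp leaned toward the mark of the gene they touch, mainly for H3K27me3. Their median ratio was -0.21 over all genes with such a stretch and 0.16 beside genes with neither mark. Beside genes with H3K27me3 only (2542 genes) it was -2.53, and beside genes with H3K4me3 only (2663 genes) it was 0.83. The quartiles beside genes with H3K4me3 only, -0.39 and 1.87, overlapped those beside genes with neither mark, -1.08 and 1.36. Beside the genes with both marks the median ratio was -2.09, close to the value beside genes with H3K27me3 only, although the ratio in the gene bodies had a median of -0.28.

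Runs of 3 or more successive genes with H3K27me3 only held 646 genes, 21.5% of that class, in 181 runs. Genes with H3K4me3 only were in such runs in a similar share, 20.7% (1373 genes in 390 runs), and genes with neither mark in 60.1%. The longest run with H3K27me3 only had 12 genes (chromosome 4, 8721487 to 8807203, 85.7 kb) and was picked for its length after the values were seen. It holds PEN1 and BARS1, oxidosqualene cyclases that make the triterpenes arabidiol and baruol, the cytochrome P450 genes CYP705A1, CYP705A2, CYP705A3, CYP705A4, CYP702A2, CYP702A3 and CYP702A5, the cellulose synthase-like genes CSLB05 and CSLB06, and 1 gene without a symbol, AT4G15390. PEN1 had 55 H3K4me3 and 1339 H3K27me3 reads. The ratios of the 12 genes ran from -4.84 to -2.03, and their H3K27me3 levels from 14.9 to 91.7 reads per kilobase per 1000000 nuclear reads, above every H3K4me3 level among them (at most 8.16). In leaf 11 of the 12 held H3K27me3 only and CYP705A4 held both. The longest run with H3K4me3 only had 8 genes, no 2 genes with both marks were neighbours, and the longest run of genes with neither mark had 19 genes.

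The gene lists differed in which mark their members held. Their counts are read against the shares of all classified genes: 27.3% H3K4me3 only, 12.4% H3K27me3 only, 0.376% both and 59.9% neither. In the floral organ identity list, all 13 MADS genes held H3K27me3 only, with a median ratio of -4.35 against 1.67 over all genes and against 12.4% of all classified genes in that class. SEP3 (AT1G24260), which bridges floral MADS complexes, had 11 H3K4me3 and 763 H3K27me3 reads and, after AG, the lowest ratio of the list, -5.29 (-6.42 to -4.57). SEP4 (33 and 479 reads, -3.12) and SHP2 (23 and 121 reads, -1.65) were the highest. The same 13 held H3K27me3 only in leaf.

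Most seed genes also held H3K27me3. Of 11 seed storage and oleosin genes 10 held H3K27me3 only, with a median ratio of -4.12. The albumin SESA3 (AT4G27160) had 21 and 1268 reads (-5.15) and the cruciferin CRU3 (AT4G28520) 46 and 1972 reads (-4.69). The oleosin genes OLEO4 (-1.11) and OLEO2 (-0.56, neither mark) were the highest. Of 12 embryo and seed regulators 8 held H3K27me3 only and 4 neither, with a median of -3.22. DOG1 (AT5G45830), the main dormancy gene, had 8 and 448 reads (-4.94) and ABI3 (AT3G24650), the B3 factor of seed maturation, 48 and 2323 (-4.87). LEC1, LEC2 and FUS3, the other master regulators of embryo identity, had -3.39, -3.79 and -3.04. The MADS genes AGL15 (51 and 24 reads, 1.76) and AGL18 (62 and 9 reads, 3.36) were at the top of this list, with neither mark over H3.

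The homeobox list split. STM, WOX9 (15 and 1049 reads, -5.34) and WUS, the stem cell factor of the shoot (15 and 554 reads, -4.42), were among 9 of 16 WOX and KNOX genes with H3K27me3 only. KNAT1, which with STM keeps meristem cells undifferentiated, held both marks over H3 (94 and 422 reads, 35 H3 reads), with H3K27me3 higher directly (-1.45). At a 3-fold line, with protein-coding reads as totals and without H3, no gene of the list held both. WOX11 (AT3G03660), which starts adventitious roots and callus downstream of auxin, had 105 H3K4me3 and 16 H3K27me3 reads, a ratio of 3.34 (2.65 to 4.27). WOX13 (104 and 13 reads, 3.61), KNAT6 (163 and 27, 3.25) and the cambium gene WOX4 (63 and 15, 2.70) were on the same side. In leaf H3K27me3 was the higher mark at WOX11, KNAT6 and WOX4 and H3K4me3 at WOX13, which overlaps another gene. The list median was -2.66.

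Callus, regeneration and root genes were divided in the same way, with 11 of 20 holding H3K27me3 only and 5 H3K4me3 only, and a median of -3.56. ESR2 (AT1G24590), an AP2/ERF factor of shoot regeneration, had 13 and 901 reads (-5.31). SHR (AT4G37650), the GRAS factor that patterns the root, had 36 and 1414 reads (-4.56). BBM, PLT1 and PLT2, AP2 factors of embryo and root stem cells, had -4.30, -3.88 and -3.75. At the other end PLT3 (AT5G10510), a sister gene, had 146 and 16 reads, a ratio of 3.81 (3.14 to 4.73). LBD16 (AT2G42430), which auxin induces at the start of lateral roots and callus, held H3K4me3 only, with 109 and 90 reads and a ratio of 0.97 (0.56 to 1.40). Its relatives LBD17, LBD18 and LBD29 held H3K27me3 only, with ratios of -4.42, -3.60 and -4.49. H3K27me3 at LBD16 was itself 0.74 over H3 (0.16 to 1.43), under the threshold, and its ratio lay below that of the median gene. The PLT genes of the list thus included members with H3K27me3 only and with H3K4me3 only.

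Of the leaf polarity and leaf shape genes, 11 of 20 held H3K27me3 only, 3 H3K4me3 only and 1 both, with a median of -1.69. All 4 of the leaf YABBY genes were among the 11: YAB1 at -5.99, YAB5 at -5.60, YAB3 at -4.95 and YAB2 at -4.66. TCP3 (120 and 11 reads, 4.03) and TCP4 (128 and 28, 2.85), which restrain leaf margin growth, held H3K4me3 only. Their relative TCP2 held both marks by a small margin, with 70 H3K4me3, 744 H3K27me3 and 30 H3 reads and 1.04 for H3K4me3 over H3. With a pseudocount of 5 no gene of the list held both. Among stomatal and trichome regulators 7 of 12 held H3K27me3 only, with GL1 (-4.95) and FAMA (-4.55) lowest, and TMM (3.24) and TTG1 (3.59) highest.

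Of the flowering time regulators 9 of 14 held H3K27me3 only and none H3K4me3 only, with a median of -2.94. FLC (AT5G10140, chromosome 5, 3173497 to 3179448), the MADS repressor of flowering that Polycomb silences in the cold, had 30 H3K4me3, 1265 H3K27me3 and 51 H3 reads, a ratio of -4.65 (-5.27 to -4.18). MAF1 (AT1G77080) had 26 and 1144 reads (-4.71), MAF2 45 and 1472 (-4.30) and MAF3 37 and 1374 (-4.48). In leaf the ratio at FLC was -3.56, and at MAF1, MAF2 and MAF3 it was 1.46, 2.69 and 1.97. MAF4 (-1.77) and MAF5 (1.15, neither mark), which follow MAF2 and MAF3 on chromosome 5, had -2.47 and -1.17 in leaf. The FLC relatives beyond MAF1 and MAF5 were named after their values were seen, as the complete group. SOC1 (AT2G45660, listed by RefSeq as AGL20), the integrator of flowering signals, held both marks over H3 with 54, 166 and 20 reads. No gene of the list held both at a 3-fold line, with protein-coding totals, without H3 or among genes with at least 30 H3 reads. CO (35 and 27 reads, 1.06) held neither.

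**Figure D5:**
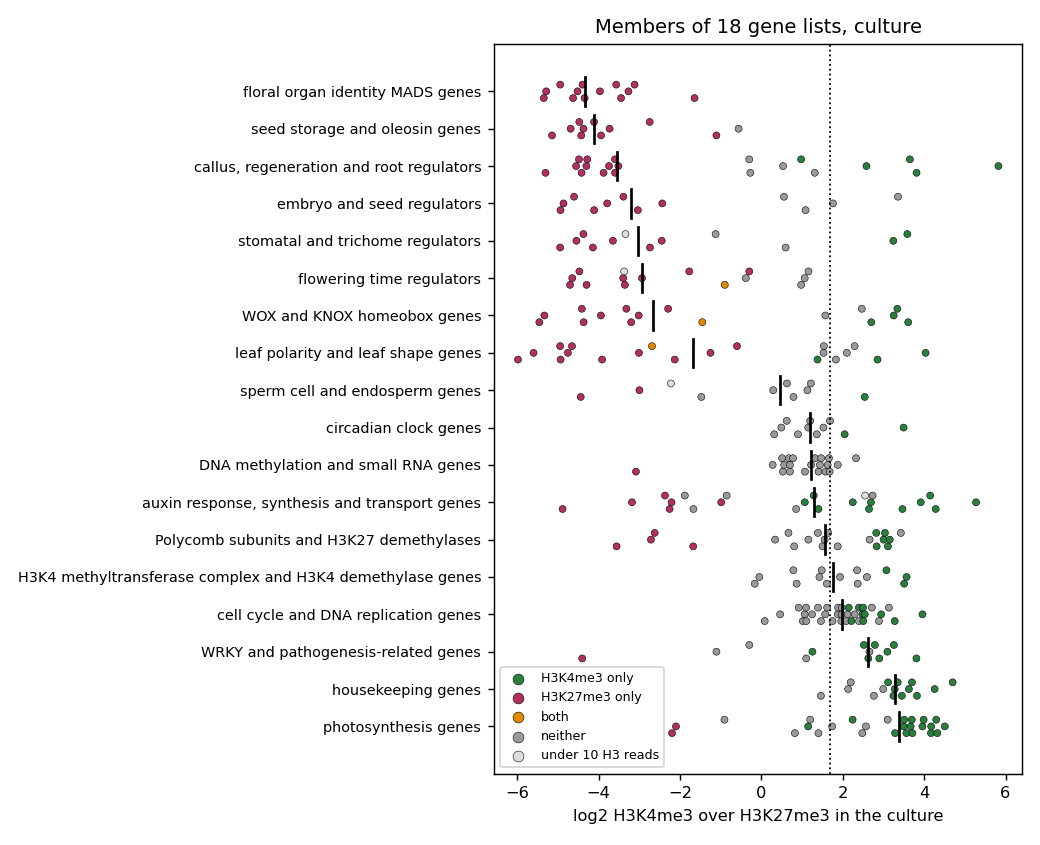
Log2 ratio of H3K4me3 to H3K27me3 in the culture (x axis) for members of 18 gene lists (y axis), 1 point per gene with at least 20 reads over both libraries, coloured by class, with a bar at each list's median and a dotted line at the median gene, 1.67. All members of the floral organ identity and seed storage lists lie left of the dotted line. The medians of the housekeeping and photosynthesis lists lie to its right. The embryo, auxin, regeneration, leaf and homeobox lists reach across both sides.

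Auxin genes lay on both sides. YUC2 (AT4G13260; 16 and 818 reads, -4.89), YUC1 (20 and 309, -3.18), YUC8 (-2.37) and TAA1 (-2.21), enzymes of auxin synthesis, held H3K27me3 only. PIN3 (AT1G70940), an auxin efflux carrier, had 562 H3K4me3 and 46 H3K27me3 reads and held H3K4me3 only, with a ratio of 4.28 (3.88 to 4.78). The efflux carriers PIN4 (1.07) and PIN7 (3.92) were in the same class, while the root carrier PIN2 (-2.26) held H3K27me3 only. IAA2 (AT3G23030), an early auxin response repressor, had 142 and 5 reads, a ratio of 5.28 (4.27 to 7.17), and IAA1 had 4.15. Of the whole list 11 of 22 held H3K4me3 only and 6 H3K27me3 only. The order turned to 6 against 9 without H3 and when centred on the median gene. It also turned to 4 against 6 at a 3-fold line and to 4 against 7 with protein-coding reads as library totals. The median, 1.29, lay below that of all genes, 1.67.

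Cell cycle and DNA replication genes lay near the median gene in H3K27me3. Their median H3K27me3 over H3 was -1.31, against -1.34 over all genes. Their median H3K4me3 over H3 was 0.66, against 0.23 over all genes. None of the 35 held H3K27me3 over H3, against 12.8% of all classified genes, 10 held H3K4me3 only, a share close to the 27.3% of all, and 25 held neither; without H3, 3 held both marks and none H3K27me3 only. By the direct ratio H3K4me3 was higher in 32, or 91.4%, against 62.5% of all genes. CYCD3;1 (AT4G34160), the D-type cyclin that cytokinin and sugar induce, had 305 and 31 reads (3.96), and CYCD2;1 had 148 and 24 (3.28). The lowest were CYCD1;1 (38 and 59 reads, 0.08) and the kinesin gene HIK (65 and 77, 0.46). The list median, 1.97, was only 0.30 above the median gene. In leaf the list median was 0.41 and that of all genes 0.87.

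Of 15 housekeeping genes 10 held H3K4me3 only and none H3K27me3, against 27.3% and 12.8% of all classified genes. Their median ratio was 3.28. The ratios of YLS8 (47 and 2 reads, 4.70) and UBQ10 (352 and 29, 4.26) were highest and those of PP2AA3 (60 and 35, 1.46) and ACT8 (88 and 32, 2.13) lowest. Of 26 photosynthesis genes 16 held H3K4me3 only, 2 H3K27me3 only and 8 neither, with a median of 3.39, the highest of the 18 lists. PSAD-1 (293 and 20 reads, 4.51) and LHCA3 (307 and 24, 4.32), of photosystem I and its antenna, led it. RBCS2B, a Rubisco small subunit gene with near-identical copies (12 and 96 reads, -2.20), and GLK1 (AT2G20570; 43 and 306 reads, -2.10), a factor that switches on chloroplast genes, held H3K27me3 only. PSAF had 4484, 370 and 582 reads of H3K4me3, H3K27me3 and H3, with 12.3-fold more H3 per 1000000 nuclear reads than in leaf, and its ratio of 4.30 does not use H3.

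Among defence genes 8 of 13 held H3K4me3 only and 1 H3K27me3 only, against 27.3% and 12.4% of all classified genes. The count with H3K4me3 only was 4 at a 3-fold line, and without H3 the order turned, with 2 holding H3K4me3 only and 3 H3K27me3 only. The ratios of WRKY18 (163 and 18 reads, 3.81) and WRKY25 (46 and 7, 3.25) were highest, and those of the pathogenesis-related genes PR1 (12 and 447, -4.41) and PR2 (17 and 62, -1.11) lowest. The list median ratio was 2.63. None of the 11 circadian clock genes held H3K27me3 over H3, against 12.8% of all classified genes, and 2 held both marks without H3. H3K4me3 only was held by 2 of 11 (ZTL at 2.05 and LUX at 3.49), against 27.3%. By the direct ratio H3K4me3 was higher in 7 of 11 and H3K27me3 in none, against 62.5% and 18.7% of all genes. PRR9 (0.31) and RVE8 (0.49) were lowest there. Of the sperm cell and endosperm genes 2 of 9 held H3K27me3 only, against 12.4% of all classified genes. These were the pollen pectin methylesterase gene VGD1 (41 and 1484 reads, -4.44) and PHE1 (12 and 168, -3.00). DUO1 (19 and 13, 1.21) held neither and SDC (92 and 25, 2.54) H3K4me3 only; the median was 0.46.

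Genes that write, read or erase H3K27me3 were near the background. Of 21 Polycomb and H3K27 demethylase genes, 4 held H3K27me3 only and 6 H3K4me3 only, against 12.4% and 27.3% of all classified genes, and 11 neither, with a median of 1.55 against 1.67. MEA (AT1G02580), the endosperm H3K27 methyltransferase, had 15 and 306 reads (-3.56), and VIN3 (AT5G57380), which cold induces, had 40 and 437 (-2.72) and overlaps another gene. FIS2 (-2.63) and EMF1 (-1.68) were the other 2. The methyltransferases CLF (0.33) and SWN (1.39) held neither mark, and the ring finger genes BMI1A (3.15) and BMI1B (3.43) were highest.

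None of the 14 genes of H3K4 methyltransferase complexes and demethylases held H3K27me3 over H3, against 12.8% of all classified genes. The list is too short to set this count apart from that share. Without H3, 1 gene held H3K27me3 only and 1 both. The median ratio was 1.77, with WDR5A (3.57) and ASH2R (3.51) highest, and ULT1 (-0.17) and ATXR7 (-0.05) lowest. Of 21 DNA methylation and small RNA genes 20 held neither mark, against 59.9% of all, with a median of 1.22. By the direct ratio H3K4me3 was higher in 12 of the 21, against 62.5% of all genes with a ratio. Long genes more often held neither mark, 95.5% of them above 6 kb, and the part of gene length in this count was not tested. The demethylase gene DML3 (38 and 537 reads, -3.09) alone held H3K27me3 over H3, and without H3 a second gene held both marks; DML2 (0.27) was next, and IBM1 (1.88) and DRM2 (2.32) were highest. NRPD1 had 1480, 1633 and 2236 reads of H3K4me3, H3K27me3 and H3, with 16.0-fold more H3 per 1000000 nuclear reads than in leaf. H3 was at least 5-fold higher than in leaf in 0.809% of the classified genes, and NRPD1, PSAF and PHT1;3 were the only ones of these among the named and listed genes.

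Families grouped by the letters of their symbols, with at least 15 classified members, gave 85 groups, and 29 of them had more genes with H3K27me3 only than with H3K4me3 only. That number was 43 without H3 and 42 when centred on the median gene. Over all classified genes 12.4% held H3K27me3 only and 27.3% H3K4me3 only, and the families named here are the extremes of the 85. The SWEET sugar transporters had the largest share with H3K27me3 only, 10 of 15 genes (66.7%), with a median ratio of -2.58. GRP genes, which encode glycine-rich proteins, had 9 of 15, GA genes, named for gibberellin, 10 of 17, and the MYB factors 52 of 112 (46.4%). TPS genes, a symbol shared by terpene and trehalose phosphate synthases, had 8 of 18. At the other end the PRA genes, which act in vesicle traffic, held H3K4me3 only in 13 of 16 (81.2%), with a median ratio of 4.01. The RPL ribosomal proteins had 15 of 22, the AGP arabinogalactan proteins 11 of 17, the PUB ubiquitin ligases 14 of 22 and the FLA proteins 11 of 19. PRA, RPL and PUB genes were among the 21 of 85 groups that had no member with H3K27me3 only. Both marks occurred in 1 of 17 TCP, 1 of 18 ERF and 1 of 18 PHT genes, against 0.376% of all classified genes, but each share is a single gene.

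Leaf gave the same mark for most of the H3K27me3 genes. Of the 2294 genes with H3K27me3 only in the culture and a class in leaf, 1988 (86.7%) held H3K27me3 only in leaf. Over all 21146 genes with a class in both, the leaf shares were 16.8% H3K27me3 only, 20.7% H3K4me3 only and 61.1% neither. Of the 5900 with H3K4me3 only in the culture, 3351 (56.8%) held H3K4me3 only in leaf, 2208 (37.4%) neither and 237 (4.02%) H3K27me3 only. Read from leaf, 55.9% of genes with H3K27me3 only kept that class in the culture and 36.0% held neither mark there. Over all classified genes the culture shares were 12.4% and 59.9%. By the direct ratio 768 of the 5868 genes with H3K27me3 higher in leaf (13.1%) had H3K4me3 higher in the culture, and 62 of 11101 (0.559%) went the other way. The median gene lay 0.81 higher in the culture than in leaf on this scale, which moves both counts, and the differences were not tested.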

How the data were processed

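Each deposited file lists 109972 intervals of the TAIR10 genome (genes, transposable elements, intergenic stretches and organelle genomes) with whole-number read counts per interval, not normalized by the authors. Bowtie2 and bedtools are named, per the submitters' processing notes; their versions and settings, and how duplicate and multi-mapping reads were handled, were not stated in these sources, so genes with near-identical copies are uncertain. Coordinates are as the files give them. Counts were scaled here to reads per 1000000 nuclear reads, and to reads per kilobase for levels. A class needed 10 H3 reads and a direct ratio 20 reads over both marks; the fold line was 2 and the pseudocount 1. With 1 library per antibody no test was run, and intervals (95%, exact Clopper-Pearson) cover counting error only; reads without molecular identifiers are not independent molecules. The calculation of classes and intervals was checked on simulated Poisson counts, with each mark set away from the 2-fold line. That check does not cover genes near the line or variation beyond counting error. Symbols came from RefSeq by locus tag (26726 of 27213 genes matched, 10383 with a symbol).

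The members, the 18 lists (312 genes, after 1 gene that is not reported here was left out) and the tests were chosen with earlier results of these data known. By rule the text names the 10 highest and 10 lowest ratios by the interval end nearer 0, the 10 clearest genes with both marks and the 8 clearest with neither, the 2 highest and 2 lowest of each list, and families with the largest shares; other genes named were chosen after their values were seen. Promoter motifs were not analysed here. Scripts used Python 3.11.15, numpy 2.4.6, pandas 2.3.3, scipy 1.17.1 and matplotlib 3.10.9.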

Additional observations from a re-analysis of the deposited data

Results flagged for a closer look

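Of the 106 genes that the naming rule picked, 6 had the marks on opposite sides of equality in the culture and in leaf, each at least 2-fold with an interval clear of 0. Over all genes 768 and 62 genes did so in the 2 directions, out of 5868 with H3K27me3 higher and 11101 with H3K4me3 higher in leaf. The differences were not tested, since each value comes from 1 pair of libraries. H3K4me3 was the higher mark in the culture and H3K27me3 in leaf in 4 genes. The AP2 factor gene PLT3 had a log2 ratio of H3K4me3 to H3K27me3 of 3.81 in the culture and -1.92 in leaf. Further, WOX11 had 3.34 and -3.16, AGL15 1.76 and -3.18, and MAF5 1.15 and -1.17. The value of MAF5 in the culture lies below that of the median gene there, 1.67. H3K27me3 was the higher mark in the culture in 2 genes. The flowering repressor MAF1 had -4.71 in the culture and 1.46 in leaf, and the chloroplast regulator GLK1 had -2.10 and 1.18.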

How the results depend on the processing

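Of 58 recomputed values, 40 stayed within 1.5 times of the reported count or, for the median ratio, within the binomial interval of its rank among the genes, and 18 moved. No single value changed sign, but the order of paired counts turned: without H3, 4594 genes held H3K4me3 only against 5116 with H3K27me3 only, and centring turned the direct comparison. The cause of each move was not tested. Among the 40 are the values that required a lower interval end above 0, which the 2-fold line nearly assures. Genes with H3K4me3 only numbered 3547 at a 3-fold line, 3929 with reads on protein-coding genes as library totals and 3688 among genes with at least 30 H3 reads, an alternative chosen after seeing the data. Genes with H3K27me3 only numbered 5010 centred on the median gene, 5116 without H3 and 1532 with at least 30 H3 reads. Genes with both marks were the least stable: 156 with no filter, 27 at 3-fold, 265 centred, 51 with protein-coding totals, 951 without H3 and 33 with at least 30 H3 reads. Of the 91, 69 kept both marks when centred, 66 without H3 and 48 with protein-coding totals. Centred, the direct comparison gave 6530 genes with H3K4me3 higher and 8143 with H3K27me3 higher. The median ratio was 1.58 with a pseudocount of 5, 1.57 with no filter, 1.57 without overlapping genes and 1.09 with protein-coding totals. No paired analysis was possible because each antibody has 1 library per sample type. Depth limits the classes of short genes, and gene-body counts those of long ones.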
